A study of Drosophila melanogaster with 12 samples.

Results

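The 4 genes described here are aurB, borr and Incenp, which encode subunits of the chromosomal passenger complex, and thr, which encodes a subunit of the fly separase complex. They were taken by symbol from the table that pairs probe sets with genes, and all 4 were measured, out of 11982 genes with a single symbol. RNA came from eye discs of last-instar Drosophila melanogaster larvae and was hybridised to Affymetrix arrays, 1 array for each of 12 samples. There were 4 genotypes, each with 3 samples that the labels call biological replicates. The rbf120a group carried an allele of Rbf, the retinoblastoma family gene whose product restrains E2F transcription factors. The wtsX1Lats group carried an allele of warts, the Hippo pathway kinase gene also known as Lats. The rbf120a wtsX1Lats group, here the double mutant, carried both, and Canton S is a wild-type strain. The comparisons ask how the transcripts of these mitotic genes differ when either or both growth brakes are mutated.

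The design text describes the discs as mosaics made up largely of mutant tissue, so an unstated share of unmutated cells was measured with the mutant ones. How the mosaics were made and how many animals went into a sample are not stated in the labels. The 3 mutant groups were all set against the same 3 Canton S arrays, so their comparisons are not independent, and an effect of an allele cannot be told apart from a difference between strains. In RNA from whole discs, more cells that express a gene and more RNA per cell cannot be told apart either, nor can fewer cells and less RNA per cell.

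The chromosomal passenger complex is the machine that carries the Aurora B kinase around the dividing cell. It sits on chromosomes and centromeres early in mitosis, where the kinase phosphorylates histone H3 and releases wrongly attached microtubules, and it moves to the central spindle at anaphase, where it is needed for cytokinesis. Incenp is the scaffold that binds and activates the kinase aurB, and Borealin (borr) and Survivin (Det in flies) bind the other end of Incenp and place the complex on chromatin. Separase is the protease that opens the cohesin ring at the start of anaphase. In flies its regulatory and catalytic portions are separate proteins, the products of thr and Sse, and pimples (pim) is the securin that holds them in check, so thr is a separase subunit and not the protease itself. Eye discs of this stage hold dividing progenitors ahead of the morphogenetic furrow, a second wave of division behind it, and differentiating photoreceptor neurons.

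Each member had 1 probe set. aurB (CG6620) and borr (CG4454) lie on chromosome arm 2L, and Incenp (CG12165) and thr (CG5785) on arm 2R. Values are log2 signals as the authors deposited them, and a difference of 1 is a doubling of signal. They ranged between 3.55 and 14.53 over all probe sets and arrays. Array medians lay between 5.76 and 5.86. Rbf averaged 9.16 ± 0.05 in rbf120a against 9.45 ± 0.12 in Canton S (SD, n = 3 each), and wts averaged 9.70 ± 0.60 in wtsX1Lats against 9.95 ± 0.10 in Canton S. Neither passed limma's test (adjusted p = 0.812 for Rbf and 0.59 for wts), and since nothing in the labels tells where the probes lie in relation to the alleles, the genotypes were not checked by these levels. The eye markers ey, toy, eya, so, dac and Optix had group means between 9.57 and 12.79. Replicate 3 of wtsX1Lats stood apart in its control transcripts, whose 3′ minus 5′ signal was 1.70 for actin, 1.90 for eIF-4a and 1.81 for GAPDH, against at most 0.824, 0.947 and 1.43 in the other 11 arrays. For the 18S rRNA control the same array had the lowest value, 0.706, against 1.22 to 2.47 in the others. The description of rbf120a replicate 3 carries the word redo and does not say what was repeated. Over all genes, the median of the within-group SD was 0.10 in rbf120a, 0.17 in wtsX1Lats, 0.08 in the double mutant and 0.13 in Canton S.

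The transcripts of all 4 genes were higher in mutant discs than in Canton S discs, and 10 of the 12 differences passed the test. aurB and borr rose in each mutant group, by 1.49 to 1.94 times. Incenp rose in wtsX1Lats and in double mutant discs, and thr rose in rbf120a and in the double mutant. Differences were tested with limma over all 11982 genes with Benjamini-Hochberg adjustment, and a gene with adjusted p under 0.05 is said to have risen or fallen. By this rule 3 of the 4 members rose in rbf120a, where 1.79% of all genes rose and 1.71% fell. In wtsX1Lats 3 of the 4 rose, against 2.28% of all genes that rose and 3.33% that fell. In the double mutant 4 of the 4 rose, against 2.23% of all genes that rose and 3.26% that fell. The members were chosen with earlier results of these data known, so the shares are a background and no test of the choice.

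aurB, the kinase of the complex, measured 10.17, 10.28 and 10.37 in replicates 1, 2 and 3 of rbf120a. It measured 10.94, 10.32 and 10.18 in wtsX1Lats and 10.52, 10.22 and 10.44 in double mutant discs, against 9.54, 9.60 and 9.44 in Canton S. Every mutant array therefore lay above every Canton S array, and the gap between the lowest of one and the highest of the other was 0.574. For all genes, 3.79% had all 9 mutant arrays above the 3 of Canton S. The difference from Canton S was 0.75 ± 0.17 in rbf120a (SE; 1.68-fold, limma adjusted p = 0.033), 0.96 ± 0.17 in wtsX1Lats (1.94-fold, adjusted p = 0.00693) and 0.87 ± 0.17 in the double mutant (1.83-fold, adjusted p = 0.0116). aurB had the largest fold of the 4 members in each mutant group. Its mean was highest in wtsX1Lats (10.48 ± 0.41, SD, n = 3), then in the double mutant (10.40 ± 0.15) and rbf120a (10.28 ± 0.10), and lowest in Canton S (9.53 ± 0.08). The arrays of the 3 mutant groups overlapped one another.

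borr, the Borealin subunit, measured 11.64, 11.58 and 11.72 in rbf120a. It measured 11.88, 11.48 and 11.38 in wtsX1Lats and 11.67, 11.49 and 11.59 in double mutant discs, against 11.02, 11.13 and 10.86 in Canton S. The 9 mutant arrays again lay above the 3 of Canton S, by 0.249 at the nearest. The difference was 0.64 ± 0.13 in rbf120a (SE; 1.56-fold, limma adjusted p = 0.0155), 0.58 ± 0.13 in wtsX1Lats (1.49-fold, adjusted p = 0.0209) and 0.58 ± 0.13 in the double mutant (1.5-fold, adjusted p = 0.0192). The 3 mutant means were close together, at 11.65 ± 0.07 in rbf120a, 11.58 ± 0.27 in wtsX1Lats and 11.58 ± 0.09 in double mutant discs (SD, n = 3 each), and their arrays overlapped. Canton S averaged 11.00 ± 0.14.

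Incenp, the scaffold, measured 11.15, 11.21 and 11.31 in rbf120a. It measured 11.80, 11.22 and 11.58 in wtsX1Lats and 11.40, 11.23 and 11.43 in double mutant discs, against 10.82, 10.93 and 10.68 in Canton S. Mutant and Canton S arrays did not overlap, with a gap of 0.225. The difference was 0.73 ± 0.13 in wtsX1Lats (SE; 1.65-fold, limma adjusted p = 0.0085) and 0.55 ± 0.13 in the double mutant (1.46-fold, adjusted p = 0.0353). In rbf120a it was 0.42 ± 0.13 (1.34-fold, adjusted p = 0.152), which did not pass. Group means ran in the same order as for aurB, with wtsX1Lats at 11.53 ± 0.29, the double mutant at 11.35 ± 0.11, rbf120a at 11.22 ± 0.08 and Canton S at 10.81 ± 0.13 (SD, n = 3 each), and the 3 mutant groups overlapped.

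thr, the separase subunit, measured 8.63, 8.63 and 8.72 in rbf120a. It measured 8.28, 8.45 and 8.45 in wtsX1Lats and 8.81, 8.57 and 8.79 in double mutant discs, against 8.17, 8.25 and 8.16 in Canton S. The wtsX1Lats arrays cleared those of Canton S by 0.0234, the narrowest gap of the 4 members, while rbf120a cleared them by 0.375 and the double mutant by 0.320. The difference was 0.46 ± 0.11 in rbf120a (SE; 1.38-fold, limma adjusted p = 0.0405) and 0.53 ± 0.11 in the double mutant (1.44-fold, adjusted p = 0.0163). In wtsX1Lats it was 0.20 ± 0.11 (1.15-fold, adjusted p = 0.351), which did not pass. The order of means was the double mutant (8.72 ± 0.13), rbf120a (8.66 ± 0.05), wtsX1Lats (8.39 ± 0.10) and Canton S (8.20 ± 0.05; SD, n = 3 each). The double mutant and rbf120a overlapped, and both lay above wtsX1Lats in every array.

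**Figure D1:**
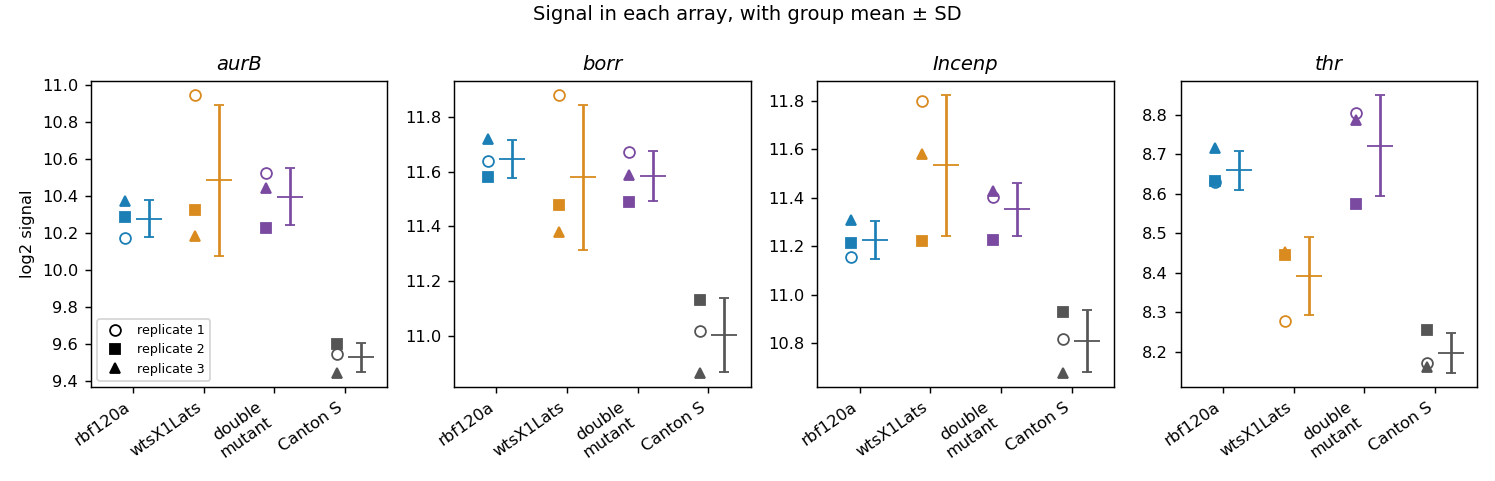
log2 signal of aurB, borr, Incenp and thr in each of the 12 arrays, by genotype, with a marker for each replicate number and the group mean ± SD beside the points (n = 3); each panel has its own vertical axis, which does not start at 0. The 9 mutant arrays lie above the 3 Canton S arrays for all 4 genes, and wtsX1Lats replicate 1 is the highest array for aurB, borr and Incenp and the lowest mutant array for thr.

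Groups of 3 arrays fail to overlap in many genes, and the counts above are to be read against that. For all genes, 10.7% had every rbf120a array above every Canton S array, 11.4% every wtsX1Lats array and 13.8% every double mutant array, and all 4 members did so in each comparison. The calls rested on few arrays. In rbf120a the 3 calls became 0 without Canton S replicate 1 or 3 or without rbf120a replicate 1 or 3, and 1 without Canton S replicate 2, rbf120a replicate 2 or double mutant replicate 3. In the double mutant the 4 calls became 0 without double mutant replicate 1 or 3, 1 without Canton S replicate 1 and 2 without Canton S replicate 3. In wtsX1Lats the 3 calls became 2 without Canton S replicate 1 or 3, in both cases through the loss of borr (adjusted p = 0.0748 and 0.0742). The single calls that fell away most often were thr in rbf120a, called in 2 of the 12 fits that left out 1 array, Incenp in the double mutant, called in 4, and aurB in rbf120a, called in 5. Without wtsX1Lats replicate 1, Incenp in rbf120a passed (adjusted p = 0.0469). aurB and Incenp in wtsX1Lats passed without any 1 array, with adjusted p up to 0.032 and 0.0362. A fit of wtsX1Lats and Canton S alone, without the other 6 arrays, called 0 of the 4 (adjusted p = 0.0813 for aurB, 0.172 for borr and 0.1 for Incenp, limma). The differences themselves stayed between 0.43 and 1.11 for aurB, borr and Incenp in wtsX1Lats with any 1 array left out.

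The other subunits of both complexes were measured as well. Det, the fly Survivin, differed from Canton S by 0.15 ± 0.12 in rbf120a (SE; limma adjusted p = 0.745), 0.36 ± 0.12 in wtsX1Lats (adjusted p = 0.0987) and 0.22 ± 0.12 in the double mutant (adjusted p = 0.383). It was at 10.32, 10.03 and 10.04 in wtsX1Lats against 9.79, 9.90 and 9.64 in Canton S, so those groups did not overlap, while 2 of the other 6 mutant arrays fell within the Canton S range. Of all genes, 11.4% had every wtsX1Lats array above every Canton S array. aust (australin), the Borealin relative known from male meiosis, was dim, with group means of 4.83 in rbf120a, 4.80 in wtsX1Lats, 4.78 in the double mutant and 4.82 in Canton S. borr and aust are neighbours on arm 2L, with only the pseudogene CR43734 between them in the annotation, and aust differed by 0.00 to -0.05 where borr rose. None of these differences for Det and aust passed.

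pim, the securin, had all 9 mutant arrays above Canton S by at least 0.0851, and 3.79% of all genes had them above. It averaged 10.32 ± 0.30 in rbf120a, 10.28 ± 0.15 in wtsX1Lats and 10.44 ± 0.18 in double mutant discs, against 9.88 ± 0.13 in Canton S (SD, n = 3 each). The differences of 0.44, 0.40 and 0.55 did not pass (limma adjusted p = 0.209, 0.164 and 0.0627 in that order of groups). Sse, the catalytic partner of thr, averaged 8.51 ± 0.08 in rbf120a, 8.48 ± 0.06 in wtsX1Lats and 8.65 ± 0.08 in double mutant discs, against 8.24 ± 0.16 in Canton S. Its differences of 0.26, 0.23 and 0.41 did not pass either (limma adjusted p = 0.375, 0.288 and 0.0676 in that order). Canton S replicate 2, at 8.43, stood near the lowest mutant array of Sse, and the gap between them was 0.0028.

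**Figure D2:**
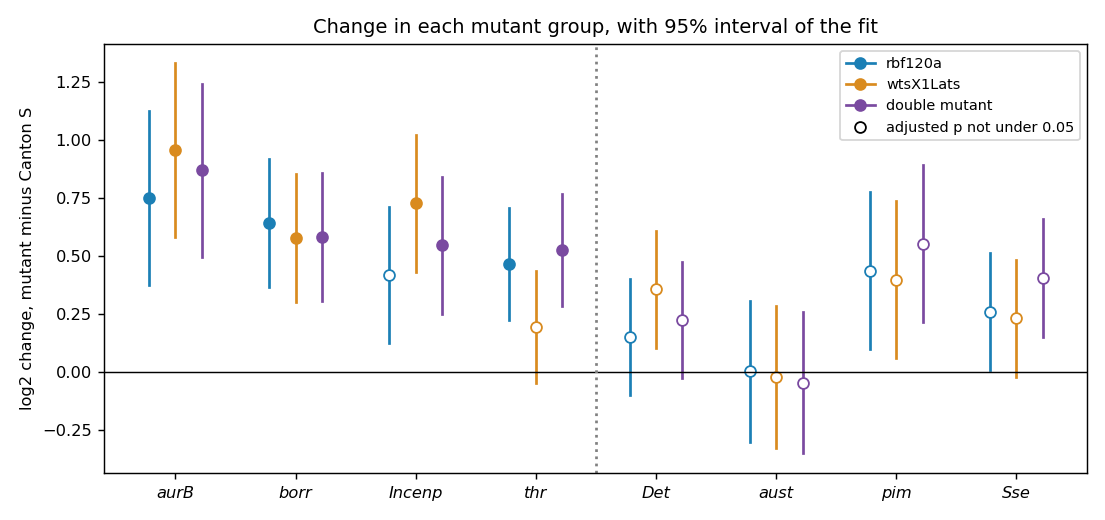
log2 difference of each mutant group from Canton S for the 4 members, left of the dotted line, and for Det, aust, pim and Sse, right of it; points are fitted differences, bars the 95% interval of the fit, and open points did not reach adjusted p under 0.05. All 4 members lie above 0 in all 3 groups, Incenp in rbf120a and thr in wtsX1Lats are open, and every point of the 4 partners is open.

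The double mutant was next set against each single mutant. Against rbf120a none of the 4 members passed, and limma called 0.676% of all genes. The differences were 0.12 for aurB (95% interval -0.25 to 0.49), -0.06 for borr (-0.34 to 0.21), 0.13 for Incenp (-0.17 to 0.42) and 0.06 for thr (-0.18 to 0.30), with 0 of the 4 at unadjusted p under 0.05, where 8.38% of all genes were. The interval for aurB still allows a difference of up to 1.41-fold.

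Against wtsX1Lats limma called 0 of 11982 genes (0%), with 1033 at unadjusted p under 0.05 (8.62%). thr was the member that stood apart, at 8.81, 8.57 and 8.79 in the double mutant against 8.28, 8.45 and 8.45 in wtsX1Lats. Every double mutant array was higher, which held for 5.29% of all genes. The difference was 0.33 (95% interval 0.09 to 0.57; 1.26-fold, unadjusted p = 0.0115 and adjusted p = 0.492, limma), so it did not pass. aurB, borr and Incenp differed by -0.09, 0.00 and -0.18, with overlapping arrays and adjusted p of 0.764 or more. Without wtsX1Lats replicate 1 the aurB difference was 0.14. That of Incenp was -0.05 without wtsX1Lats replicate 1 and -0.34 without replicate 2, the smallest and largest sizes with 1 array left out.

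Between the single mutants, rbf120a against wtsX1Lats, none of the members passed, and 14.7% of all genes had unadjusted p under 0.05. thr was higher in every rbf120a array than in any wtsX1Lats array, as were 8.03% of all genes, by 0.27 (95% interval 0.03 to 0.51; unadjusted p = 0.0326, limma adjusted p = 0.285). Incenp was at 11.15, 11.21 and 11.31 in rbf120a against 11.80, 11.22 and 11.58 in wtsX1Lats, a difference of -0.31 (95% interval -0.60 to -0.02; unadjusted p = 0.0409, adjusted p = 0.315) with overlapping arrays. It was -0.46 without wtsX1Lats replicate 2 and -0.18 without replicate 1, and 0.0034 with replicate 2 as the lone wtsX1Lats array, a fit chosen after seeing the data. aurB differed by -0.21 and borr by 0.07 (adjusted p = 0.616 and 0.849). Of all genes, 120 or 1% were called, and 77 with the replicate number as a block. With the block the adjusted p of the 4 members lay between 0.325 and 0.842.

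The design also allows the double mutant to be compared with the sum of the single changes. For aurB the double mutant changed by 0.87 against a sum of 1.70, a difference of -0.84 ± 0.24 (SE; 95% interval -1.36 to -0.31, unadjusted p = 0.00479). For borr the double mutant changed by 0.58 against a sum of 1.22, a difference of -0.64 ± 0.18 (unadjusted p = 0.00386). For Incenp the values were 0.55 in the double mutant against a sum of 1.14, a difference of -0.60 ± 0.19 (unadjusted p = 0.00856). For thr the double mutant changed by 0.53 against a sum of 0.66, a difference of -0.13 ± 0.16 (unadjusted p = 0.412). The mean of the double mutant lay between those of the single mutants for aurB, borr and Incenp, and above both for thr.

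After adjustment over all genes none of the 4 interaction terms passed, with limma adjusted p of 0.203 for aurB, 0.179 for borr, 0.272 for Incenp and 0.828 for thr, although 3 of the 4 had unadjusted p under 0.05, as did 9.65% of all genes. The same test called 0.893% of all genes, and its median over all genes was -0.02. Negative terms were not particular to the members. In the list of 25 E2F pathway and DNA replication genes described below the median term was -0.75, and 1 of the 25 was positive. At unadjusted p under 0.05 there were 16 of these 25, all negative, and 0 passed after adjustment. The term subtracts the Canton S level from both single changes, so it rests on the same 3 control arrays. In 2 fits chosen after seeing the data the terms moved. With wtsX1Lats replicate 2 as the lone array of its group the Incenp term was -0.29, and those of aurB and borr were -0.67 and -0.54. With array weights estimated gene by gene, where Canton S replicate 1 had the highest weight of 4.51, aurB and borr passed (-0.69 and -0.55, adjusted p = 0.0192 and 0.0141).

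**Figure D3:**
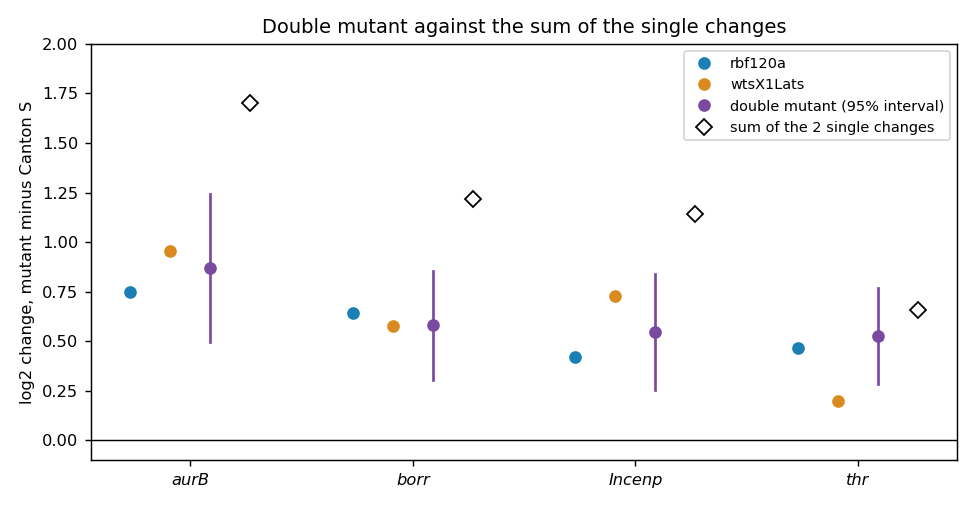
log2 change from Canton S of the 4 members in rbf120a, wtsX1Lats and the double mutant (bar, 95% interval of the fit), with the sum of the 2 single changes as an open diamond. For aurB, borr and Incenp the diamond lies above the interval of the double mutant, and for thr it lies inside it.

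Replicates of a genotype also showed how the genes vary together. Within groups, that is after each group mean was taken off, aurB and borr correlated with r = 0.94 over the 12 arrays, aurB and Incenp with 0.72 and borr and Incenp with 0.73. Det joined them, at 0.87 with aurB, 0.95 with borr and 0.81 with Incenp. thr did not follow them, at -0.16 with aurB, -0.11 with borr and 0.02 with Incenp, and was at 0.54 with pim. The separase genes did not form a set apart, however. Sse was at 0.39 with thr, below its 0.53 with aurB, 0.61 with borr and 0.64 with Incenp. pim was at 0.22 with aurB, 0.29 with borr and 0.51 with Incenp. All these values are descriptions across arrays that share a hybridisation each. wtsX1Lats weighs most in those among aurB, borr, Incenp and Det. In wtsX1Lats, replicate 1 exceeded its group mean by 0.46 for aurB, 0.30 for borr, 0.27 for Incenp and 0.19 for Det, and lay 0.11 below it for thr (deviation -0.11). The deviations of the 4 members in the other 3 groups lay between -0.17 and 0.13.

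**Figure D4:**
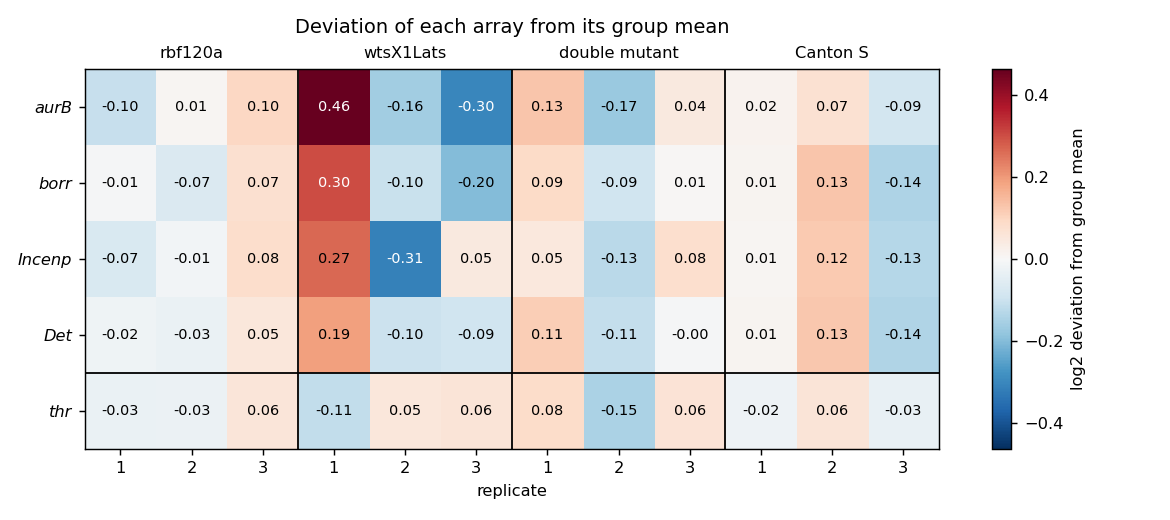
Deviation of each array from the mean of its group (log2, colour and printed value), for aurB, borr, Incenp and Det above the line and thr below it, with arrays in columns by genotype and replicate number. wtsX1Lats replicate 1 lies above its group mean for the 4 passenger complex genes and below it for thr (-0.11), and in the thr row double mutant replicate 2 lies lower (-0.15).

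The 5 genes most like each member in level over the 12 arrays were taken by Pearson r among named genes of at least median level and an SD of at least 0.3. For aurB, among 957 genes, they were RanGAP (0.986), ncd (0.983), Rtel1 (0.976), fzy (0.971) and Ibf2 (0.964). For borr they were Prim2 (0.976), lok (0.976), Ibf2 (0.973), PolE2 (0.973) and pie (0.971). For Incenp they were Acox57D-p (0.969), Rab27 (0.947), msd1 (0.944), bora (0.943) and Rtel1 (0.939). For thr, among 958 genes, they were FANCI (0.967), PolA1 (0.955), mu2 (0.951), PolH (0.927) and Alms1a (0.925). These genes were picked on all 12 arrays, group differences included, so that their changes against Canton S follow those of the member by the choice itself. Deviations within groups entered that r too, so the within-group values are not free of the choice either. Within groups, r with aurB was 0.89 to 0.96 for its 5 genes, with borr 0.91 to 0.97 for its 5 and with Incenp 0.88 to 0.95 for its 5. For thr it was 0.86 for FANCI and 0.89 for mu2, but 0.56 for PolA1, 0.57 for PolH and 0.57 for Alms1a.

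Genes that work beside the 2 complexes were counted list by list. Of 8 measured partners of the passenger complex, 0 rose and 0 fell in any mutant group (limma), with medians of 0.10 in rbf120a, 0.18 in wtsX1Lats and 0.19 in double mutant discs. At unadjusted p under 0.05 there were 1, 3 and 2 partners in that order of groups, all higher than in Canton S. Over all genes this threshold was passed in either direction by 12.5% in rbf120a, 20.7% in wtsX1Lats and 16.4% in double mutant discs, and the list counts at unadjusted p are to be read against these shares. The histone H3 kinase Haspin, which makes a docking mark for the complex, differed by -0.15 in rbf120a, -0.16 in wtsX1Lats and -0.12 in double mutant discs. The kinase Bub1, which makes the other mark on histone H2A, differed by 0.25, 0.22 and 0.20 in that order. subito (sub), the kinesin that partners the complex on the central spindle, differed by 0.28 (adjusted p = 0.18), 0.17 (adjusted p = 0.34) and 0.34 (adjusted p = 0.0629). The medians of all 11982 genes were 0.00 in rbf120a, 0.02 in wtsX1Lats and 0.00 in double mutant discs.

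Of 12 measured separase and cohesion genes 1 rose in rbf120a, 0 in wtsX1Lats and 2 in double mutant discs, and 0 fell, with medians of 0.27, 0.22 and 0.38. At unadjusted p under 0.05 there were 7, 2 and 7 of the 12, all higher, and the 2 in wtsX1Lats are a smaller share than the 20.7% of all genes. eco, the acetyltransferase that locks cohesin onto sister chromatids, rose in rbf120a by 0.54 ± 0.12 and in the double mutant by 0.50 ± 0.12 (SE; limma adjusted p = 0.0245 and 0.0273). It was at 9.86, 9.78 and 9.92 in rbf120a and 9.87, 9.68 and 9.89 in the double mutant, against 9.26, 9.52 and 9.16 in Canton S, with no overlap. Every array lay above Canton S for 10.7% of all genes in rbf120a and 13.8% in the double mutant. In wtsX1Lats eco differed by 0.13 ± 0.12 (adjusted p = 0.599) and overlapped Canton S. wapl, which releases cohesin, rose in the double mutant (0.60 ± 0.16, adjusted p = 0.0474). The cohesin subunits SMC1 and SMC3 differed by 0.38 and 0.27 in rbf120a discs, 0.22 and 0.07 in wtsX1Lats and 0.41 and 0.30 in double mutant discs, none of which passed.

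Spindle checkpoint and anaphase-promoting complex genes showed single rises. Of 21 measured, 0 rose in rbf120a, 1 in wtsX1Lats and 3 in double mutant discs, and 0 fell. At unadjusted p under 0.05, 5, 10 and 5 of the 21 were higher and 0, 1 and 1 lower in that order of groups, against the 12.5%, 20.7% and 16.4% of all genes. fzy (the fly Cdc20, which switches on the ubiquitin ligase that destroys securin) rose in wtsX1Lats by 0.70 ± 0.17 and in the double mutant by 0.71 ± 0.17 (SE; limma adjusted p = 0.0333 and 0.0311). The checkpoint gene rod (0.48 ± 0.11, adjusted p = 0.0209) and mi (0.43 ± 0.11, adjusted p = 0.0409) rose in the double mutant. fzy measured 10.90, 10.91 and 10.92 in rbf120a, a difference of 0.52 that did not pass (adjusted p = 0.156), and 11.57, 11.02 and 10.68 in wtsX1Lats, against 10.42, 10.37 and 10.37 in Canton S.

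At the kinetochore, 1 of 12 measured genes rose in rbf120a, 2 in wtsX1Lats and 1 in double mutant discs. Over all genes 1.79%, 2.28% and 2.23% rose in that order of groups. At unadjusted p under 0.05 there were 4, 6 and 5 of the 12, all higher, against 12.5%, 20.7% and 16.4% of all genes. Nnf1b, a subunit of the Mis12 complex, rose in rbf120a (0.81 ± 0.17, SE; limma adjusted p = 0.0243) and in wtsX1Lats (0.89 ± 0.17, adjusted p = 0.0123), and Mis12 rose in wtsX1Lats (0.87 ± 0.21, adjusted p = 0.0324). cid, the centromeric histone H3 variant, rose in the double mutant by 1.18 ± 0.29 (adjusted p = 0.0337). Among 9 measured genes of the central spindle and cytokinesis, where the passenger complex acts last, 1 rose in rbf120a, 4 in wtsX1Lats and 2 in double mutant discs. At unadjusted p under 0.05 there were 3, 4 and 6 of the 9, all higher, against the same shares. The formin dia rose in each group, by 1.42 ± 0.25 in rbf120a, 1.23 ± 0.25 in wtsX1Lats and 1.23 ± 0.25 in double mutant discs (adjusted p = 0.00893, 0.0155 and 0.015 in that order). The kinesin ncd (0.71 ± 0.14), the PRC1 homologue feo (0.51 ± 0.12) and the anillin gene scra (0.45 ± 0.10) rose in wtsX1Lats, with adjusted p of 0.0128, 0.0256 and 0.0205, and ncd also rose in the double mutant (0.66 ± 0.14, adjusted p = 0.0175).

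In condensin, 0, 0 and 1 of 7 genes rose in rbf120a, wtsX1Lats and the double mutant. At unadjusted p under 0.05 there were 3, 2 and 4 of the 7, all higher, against the same shares of all genes. The 1 gene that rose was barr, a condensin I subunit (0.44 ± 0.11, SE; limma adjusted p = 0.0445). Among 8 measured mitotic entry genes, 0, 2 and 2 rose in the same order, and 4, 4 and 4 of the 8 were higher at unadjusted p under 0.05, against the same shares. CycB3, a mitotic cyclin, rose in wtsX1Lats (0.45 ± 0.11, adjusted p = 0.0327) and the double mutant (0.63 ± 0.11, adjusted p = 0.00508), bora, an activator of Aurora A, rose in wtsX1Lats (0.80 ± 0.20, adjusted p = 0.0387), and CycB rose in the double mutant (0.47 ± 0.12, adjusted p = 0.0472). None of 8 measured genes of the phosphatases PP1 and PP2A passed, with 0, 2 and 0 at unadjusted p under 0.05, both of them lower, and their medians were -0.07, -0.10 and -0.03. In no list from kinetochore to PP1 and PP2A did a member fall in these comparisons. polo, the kinase that acts beside the complex, was not analysed here.

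These list counts also moved with single arrays. With each array left out in turn, the double mutant count of separase and cohesion genes that rose ranged between 0 and 6. That of checkpoint genes ranged between 0 and 4, kinetochore 0 to 5, central spindle 0 to 4, condensin 0 to 2 and mitotic entry 1 to 4. Each stood at its lowest without Canton S replicate 1, and other omissions may have given the same count. In wtsX1Lats the central spindle count ranged between 1 and 4 and the kinetochore count between 1 and 5. Of the list genes named above, dia in rbf120a, ncd and Nnf1b in wtsX1Lats and CycB3 in double mutant discs passed without any 1 array. The weakest were wapl and barr in the double mutant and bora in wtsX1Lats, each called in 2 of 12 such fits.

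**Figure D5:**
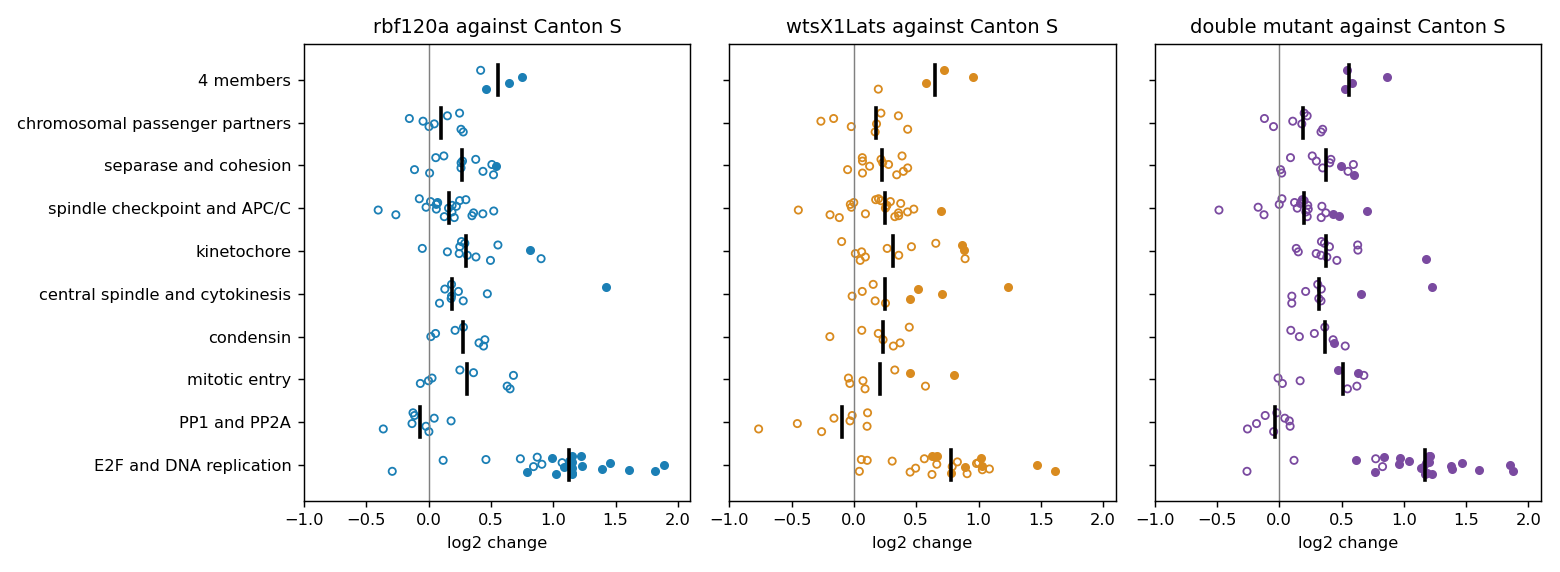
log2 change from Canton S of each measured gene of 9 lists and of the 4 members, in rbf120a, wtsX1Lats and the double mutant; 1 point is 1 gene, filled where adjusted p was under 0.05, and the black bar is the median of the row. Members and lists were chosen with earlier results of these data known. In rbf120a and in the double mutant all 4 members lie to the right of the bars of the 8 mitotic lists, and in wtsX1Lats aurB, borr and Incenp do. There thr, at 0.20, lies left of the bars of separase and cohesion (0.22), checkpoint (0.25), kinetochore (0.31), central spindle (0.25), condensin (0.23) and mitotic entry (0.21), and the bar of the E2F and DNA replication list stands at 1.12, 0.78 and 1.17 in the 3 panels.

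A list of E2F pathway and DNA replication genes had larger median changes than the mitotic lists in each mutant group. It holds replication genes along with the regulators Rbf, Rbf2, E2f2, Dp and CycE, so Rbf itself, the gene mutated in rbf120a, is among its genes. Of 25 measured, 17 rose in rbf120a, 8 in wtsX1Lats and 21 in double mutant discs, and 0 fell (limma), with medians of 1.12, 0.78 and 1.17. Over all genes 1.79%, 2.28% and 2.23% rose in that order of groups. At unadjusted p under 0.05 there were 23, 21 and 23 of the 25, all higher, against 12.5%, 20.7% and 16.4% of all genes in either direction. The 4 members had differences of 0.42 to 0.75 in rbf120a, 0.20 to 0.96 in wtsX1Lats and 0.53 to 0.87 in double mutant discs. Without Canton S replicate 1 the counts of genes of this list that rose were 8, 2 and 12. Without wtsX1Lats replicate 3, the array that stood apart in its control transcripts, they were 21, 17 and 21. By array, the median of this list over Canton S was 1.37, 0.42 and 0.56 in replicates 1, 2 and 3 of wtsX1Lats, and replicate 1 was also the highest for aurB, borr and Incenp. What part the spread of that group had in the member values was not tested.

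Markers of the cell types a disc preparation can hold moved with the genotypes too. Of 11 photoreceptor and cone cell markers 0 fell in rbf120a, 5 in wtsX1Lats (gl, sens, ro, sev and pros) and 4 in double mutant discs (gl, sens, ro and sev), with medians of -0.27, -1.05 and -0.91. At unadjusted p under 0.05, 2, 9 and 7 of the 11 were lower, against 12.5%, 20.7% and 16.4% of all genes in either direction. Their summed signal, as log2, lay at 12.56 to 12.83 in rbf120a, 11.78 to 12.65 in wtsX1Lats and 12.11 to 12.35 in double mutant discs, against 12.86 to 13.05 in Canton S. Of 6 hemocyte markers 4 fell in rbf120a (Hml, eater, srp and PPO1), 3 in wtsX1Lats (Hml, eater and srp) and 2 in double mutant discs (Hml and eater). Over all genes 1.71%, 3.33% and 3.26% fell in that order of groups. The hemocyte marker NimC1 averaged 6.09, 6.14 and 6.15, above the 5.87 of Canton S, and did not pass. The summed signal of the 6 lay at 9.90 to 10.18, 10.21 to 10.68 and 9.89 to 10.60 in these groups, against 11.01 to 12.06 in Canton S. Of 4 brain and glia markers 0, 2 and 3 fell in the same order, with summed signals of 10.01 to 10.37, 9.46 to 9.89 and 9.33 to 9.63, against 10.14 to 10.59 in Canton S. No marker was at 0 on this scale, and detection calls were not used here. The part of these shifts in the member values was not tested.

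The remaining markers gave few calls. Of 6 eye disc genes 0 rose in rbf120a, 1 in wtsX1Lats (Optix) and 2 in double mutant discs (ey and Optix), against 1.79%, 2.28% and 2.23% of all genes. At unadjusted p under 0.05, 0, 2 and 3 were higher and 0, 2 and 0 lower, against 12.5%, 20.7% and 16.4% of all genes in either direction. eya averaged 10.85 in wtsX1Lats and 10.98 in double mutant discs against 11.40 in Canton S. so averaged 9.74 and 10.14 against 10.09, and neither eya nor so passed. None of the measured markers of muscle (3), fat body (2) and salivary gland (3) passed in any of the 3 groups (limma), and 0 had unadjusted p under 0.05. Single arrays stood apart in them. The summed salivary gland signal, as log2, was 10.70 in rbf120a replicate 2 against 6.87 and 6.93 in replicates 1 and 3, and 9.13 in wtsX1Lats replicate 3 against 7.28 and 7.56 in replicates 1 and 2. The fat body sum was 9.90 in rbf120a replicate 3 and 6.74 to 7.96 in the other 11 arrays. The part of these signals in the member values was not tested. Of 3 germline and testis markers aub rose in wtsX1Lats (0.35 ± 0.08, SE; limma adjusted p = 0.0319) and in double mutant discs (0.36 ± 0.08, adjusted p = 0.0274). Over all genes 2.28% and 2.23% rose in these groups, and each aub call held in 8 of 12 fits that left out 1 array. The other markers did not pass. In rbf120a, wtsX1Lats and double mutant discs, bam averaged 5.41, 5.43 and 5.43 against 5.24 in Canton S. vas was lower, at 4.74, 4.87 and 4.92 against 4.93.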

How the data were processed

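Total RNA of 12 eye disc samples, 4 genotypes with 3 replicates each, was labelled with biotin and hybridised, per the labels' protocols. The authors deposited 1 table of log2 values for 18952 probe sets. That scale was inferred from their range, and the summary method, normalization and genome build are not given in the sources used here. Sorted values differed between arrays by at most 0.175 from their mean distribution. Depth does not apply to arrays, and their number limits the precision.

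There were 183 control probe sets, while 13647 others had 1 gene symbol, 402 several and 4720 none in the platform annotation, and 13544 matched the RefSeq gene table (Release 6 plus ISO1 MT), used for names and chromosome arms. Each of 11982 genes was represented by its probe set of highest mean. Mapped columns were read by their titles.

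limma 3.58.1 in R 4.3.3 (lmFit, eBayes with a variance trend) fitted 4 group means to all 12 arrays, with 8 residual degrees of freedom. Benjamini-Hochberg adjustment ran over all 11982 genes, and adjusted p under 0.05 was called. Every adjusted p is from this test. p-values measure the spread between these replicates, whose origin in separate animals is not stated. The fit was tested on simulated data. Members and lists were chosen with earlier results of these data known. List genes that passed were named, at most 4 per list and comparison, with Det, aust, pim and Sse throughout, and the 5 genes of most similar pattern per member. Other genes, among them Haspin, Bub1, sub, SMC1, SMC3 and the markers, were named after their values were seen. Lists held 183 genes as written.

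Whether replicate numbers pair the arrays was checked by correlating same-numbered deviations from group means. The 18 values lay between -0.298 and 0.311. All 3 were over 0.1 for rbf120a with wtsX1Lats (0.218, 0.301 and 0.216), and for no other pair of groups, so the blocked result stands beside that comparison. Alternatives were the block, each array left out, the compared groups alone, no trend, array weights, quantile normalization, the mean of probe sets, dim genes left out and wtsX1Lats replicate 2 alone.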

Additional observations from a re-analysis of the deposited data

Results flagged for a closer look

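Of the measured list genes and members, 3 differed between backgrounds by the test of the interaction, all of them hemocyte markers. The difference made by rbf120a was more positive in the wtsX1Lats background than in the Canton S background by 2.60 ± 0.42 for eater (SE; limma adjusted p = 0.0171), 2.09 ± 0.33 for Hml (adjusted p = 0.0143) and 2.88 ± 0.60 for srp (adjusted p = 0.0495). All 3 fell in both single mutants, and the log2 change of eater was -2.29 in rbf120a and -2.64 in wtsX1Lats. In the double mutant eater fell by 2.33 and Hml by 2.00, while srp differed by -1.11 and did not pass (adjusted p = 0.184), so the sum of the single changes lay below the double mutant change. The levels that the sum of the single changes would give were 2.84 for srp, below the lowest value of any probe set on these arrays (3.55), 3.63 for eater, near it, and 5.37 for Hml, with double mutant means of 5.72, 6.22 and 7.46. For srp the bottom of the scale therefore fixed the sign of the term, and its part in the terms of eater and Hml was not tested. The interaction terms of aurB, borr, Incenp and thr had the opposite sign and did not pass.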

How the results depend on the processing

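The 12 differences of the members from Canton S stayed above 0 in all 240 values computed under the alternatives, and 10 of 12 were called at first. For each member every mutant array lay above every Canton S array, so leaving out or weighting arrays could not turn these signs. With 1 array left out at a time, 81 of 144 values were called, and only aurB and Incenp in wtsX1Lats were called in each of their 12 fits. The lost calls left the size near its value: aurB in rbf120a ranged between 0.70 and 0.80, borr between 0.57 and 0.71, Incenp between 0.35 and 0.48 (called at 0.42 without wtsX1Lats replicate 1) and thr between 0.43 and 0.49. borr in wtsX1Lats ranged between 0.43 and 0.68. In the double mutant, aurB ranged between 0.81 and 0.95, borr between 0.51 and 0.65, Incenp between 0.48 and 0.61 and thr between 0.48 and 0.60. The sign turned for aurB, double mutant against wtsX1Lats (-0.24 to 0.14), aurB, rbf120a against wtsX1Lats (-0.36 to 0.0247), borr, double mutant against wtsX1Lats (-0.10 to 0.16) and borr, rbf120a against wtsX1Lats (-0.0335 to 0.22), none of them called. Numbers of genes called against Canton S went from 197 to 632 (rbf120a), 297 to 1596 (wtsX1Lats) and 297 to 1080 (double mutant). The double mutant gave 29 to 159 genes against rbf120a and 0 to 20 against wtsX1Lats, with 30 to 772 for rbf120a against wtsX1Lats and 41 to 121 for the interaction. With the replicate block, thr in rbf120a (0.46, adjusted p = 0.073) was no longer called, rbf120a against wtsX1Lats gave 77 genes, and no other member call changed. With the arrays of the compared groups alone, wtsX1Lats against Canton S gave 181 genes and lost aurB (0.96), borr (0.58) and Incenp (0.73), Incenp in rbf120a (0.42) was called, and the double mutant gave 1076 genes against Canton S and 412 against rbf120a, and rbf120a against wtsX1Lats 23. The interaction has no such fit. With dim genes left out, 235 genes (rbf120a) and 425 (double mutant) were called against Canton S, 42 between double mutant and rbf120a, 67 for rbf120a against wtsX1Lats and 55 for the interaction. Of 2 alternatives chosen after seeing the data, wtsX1Lats replicate 2 alone assumes that the lone array varies like the other groups. It gave 794, 311 and 1401 genes against Canton S, 240 between double mutant and rbf120a, 2 between double mutant and wtsX1Lats and 55 for the interaction. It called Incenp in rbf120a (0.42), lost borr (0.47) and Incenp (0.41) in wtsX1Lats, and turned aurB (0.0752) and Incenp (0.13) in the double mutant against wtsX1Lats and Incenp in rbf120a against wtsX1Lats (0.0034). Array weights by limma's default method, as first planned, did not converge (weight 28.87 for Canton S replicate 1) and are not reported. Weights estimated gene by gene gave 1602, 2081 and 2681 genes against Canton S, 522, 66, 865 and 410 in the other contrasts, called Incenp in rbf120a (0.41), thr in wtsX1Lats (0.26) and the interactions of aurB (-0.69) and borr (-0.55), and turned aurB (0.0509) and Incenp (0.0697) in the double mutant against wtsX1Lats. No variance trend, quantile normalization and the mean of probe sets changed no member call. The cause of these shifts was not tested. The number of arrays, 3 a group, limits the precision, and no detection calls were used.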
